A study of Mus musculus with 28 samples.

Results

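Gene expression in C2C12 cells was compared between 24 h in differentiation medium and proliferation in growth medium. The comparison used every gene of the deposited RNA-seq count table and the 3 libraries labelled DM24h against the 3 labelled GM, which are 6 of the 28 samples of the series and 6 of its 18 RNA-seq libraries. C2C12 is an immortalised mouse myoblast line, and both groups were wild-type cells of this 1 line. GM cells were kept in DMEM with 20% fetal bovine serum. DM24h cells had been moved, at 90% confluence, to DMEM with 3% horse serum and were collected 24 h later. The switch changed both the amount and the species of the serum, and the confluence of the GM cells at collection was not stated, so medium, density and time cannot be told apart. Total RNA went into strand-specific libraries. The labels number them as biological replicates without saying how the cultures were kept apart, so p-values reflect a spread among libraries that may be technical. That spread was estimated within the groups of all 18 RNA-seq libraries.

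Myoblasts are committed muscle precursors. When mitogens are withdrawn they leave the cell cycle, and factors of the MyoD family, with MEF2 proteins as partners, switch on the genes of the contractile apparatus before the cells fuse into multinucleated myotubes. Proliferating cells in rich serum take up sterols with serum lipoproteins. Sterol shortage releases SREBP transcription factors, which bind sterol elements in the promoters of lipid synthesis genes. The factor ATF4 binds composite elements upstream of genes for amino acid synthesis and transport.

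Levels are given as CPM, which are counts per 1000000 counts of the effective library size. A difference is the log2 fold change of 24 h over GM, ± an approximate standard error derived from the test. That error is the absolute change divided by the square root of the F statistic, and it is rough at low counts. A gene counts as called where edgeR's quasi-likelihood test gave a Benjamini-Hochberg adjusted p below 0.05 over all genes tested. The words rose and fell are used only of called genes. GM libraries held 26.8 to 32.8 M counts (M, 1000000) and 24 h libraries 28.2 to 34.2 M. Of 49089 genes, 15303 had enough counts to be tested. At 24 h 4619 of these (30.2%) were higher and 4679 (30.6%) lower. Counts of called members in the gene lists below are to be read beside these shares. The median log2 fold change over all genes tested was 0.0057 and the median absolute change 0.35, so most calls were small. In all 1112 genes (7.27%) were called at least 2-fold higher and 879 (5.74%) at least 2-fold lower. In 9871 genes (64.5%) the 3 libraries of 1 group all lay above the 3 of the other. Against the 12 h libraries of the series 4258 genes (27.8%) were higher at 24 h and 4055 (26.5%) lower, and at 48 h 2683 genes (17.5%) were higher than at 24 h and 2262 (14.8%) lower. The direction with more calls changed with the settings in all 3 contrasts. With scaling by total counts alone the split was 5174 higher and 4078 lower against GM, and 1927 higher and 2876 lower from 24 to 48 h. The split from 24 to 48 h was 1949 higher and 2234 lower without the first 24 h library, 1952 and 2144 without the second 48 h library, and 1910 and 2144 without the third. With the 6 libraries of each contrast fitted alone it was 3489 higher and 3889 lower against 12 h, and 2159 higher and 2404 lower from 24 to 48 h. All 3 contrasts use the same 24 h libraries.

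The labelled cell type was checked against marker genes. All 7 myoblast markers, which include Myod1, Myf5, Des and Cdh15, were detected in both groups, with a summed level of 1329 to 1367 CPM in GM and 1741 to 1781 CPM at 24 h. The 6 myotube markers summed to 36.0 to 37.8 CPM in GM and 204 to 211 CPM at 24 h, and all 6 rose. Of the myoblast markers 4 rose and 3 fell. The 5 endothelial markers reached at most 0.968 CPM in sum, the 4 neuronal markers at most 0.133 CPM with Rbfox3 at 0 throughout, and the 4 epithelial markers at most 1.10 CPM with Epcam at 0. The 6 adipocyte markers summed to 49.6 to 55.8 CPM in GM and 60.5 to 61.2 CPM at 24 h. Of these 3 stayed below 1 CPM in each group, and 2 rose and 1 fell. The means in GM and at 24 h were 22.0 and 34.8 CPM for Lpl, 18.5 and 9.29 CPM for Pparg, and 12.5 and 16.5 CPM for Cebpa. The 5 blood cell markers summed to 10.4 to 11.0 CPM and 12.5 to 13.3 CPM, 1 rising and 1 falling. Cd14 averaged 8.45 CPM in GM and 11.0 CPM at 24 h, Cd68 2.25 and 1.68 CPM, and Adgre1 was at 0 throughout. The 7 bone and cartilage markers summed to 23.0 to 28.1 CPM and 19.1 to 27.0 CPM, 1 falling. Runx2 averaged 13.4 CPM in GM and 11.3 CPM at 24 h, Sox9 11.4 and 10.5 CPM, and Acan was at 0. The part of these cell types in the results was not tested. In bulk libraries, more cells of a type and more RNA of that type per cell cannot be told apart.

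1 library stood apart. In the third 24 h library 88 of 9232 protein-coding genes with an average log2 CPM of at least 3 lay at least 0.5 log2 units above both other 24 h libraries, against at most 6 such genes in any other of the 18 libraries. Polr2a, the largest subunit of RNA polymerase II, read 65.6, 63.6 and 58.9 CPM in GM and 16.3, 12.4 and 47.2 CPM at 24 h. Its 24 h libraries were all below GM, but the third lay far above the first and the second. Its change was −1.32 ± 0.27 with all libraries and −2.12 without the third. Of the 88 genes, 31 were called lower and 7 higher, and 69 lower and 3 higher once that library was left out. Among the gene groups below, leaving it out changed the count of falls from 8 to 12 of 34 for extracellular matrix. Its effect on endoplasmic reticulum chaperones, respiratory chain subunits and the insulin-like growth factor axis is given with those groups. So is its effect on Z-disc genes, on calcium genes and on inhibitors of the MyoD family.

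**Figure D1:**
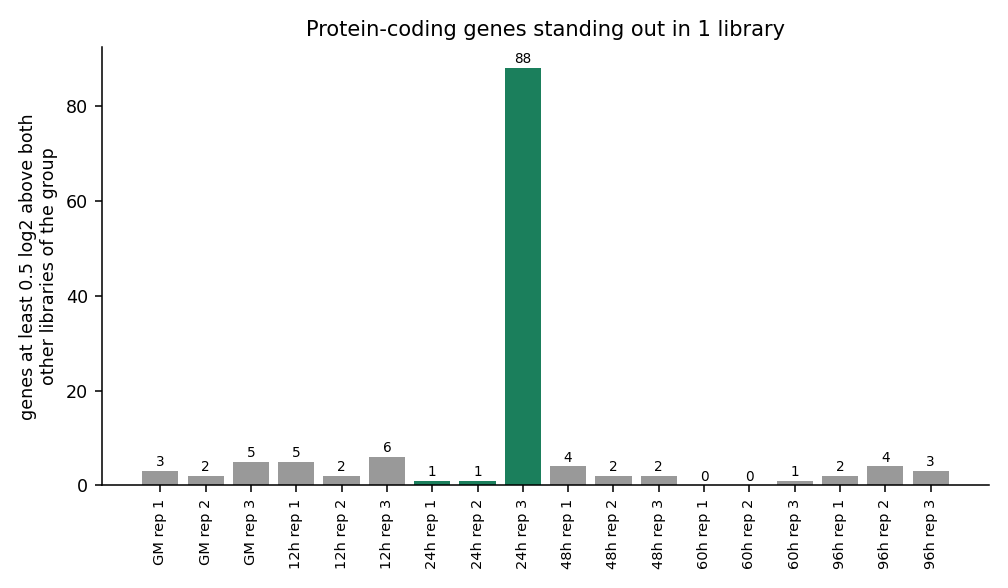
Bars give, for each of the 18 libraries (horizontal axis, group and replicate), the number of protein-coding genes at least 0.5 log2 units above both other libraries of the same group. The third 24 h library has 88 such genes and every other library at most 6.

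The largest rises among genes with an average log2 CPM of at least 3 belonged mainly to muscle genes and sterol genes. Unc45b, a chaperone that folds myosin, led with 3.89 ± 0.26 (14.9-fold), followed by Klhl40, which stabilises thin filament proteins, with 3.70 ± 0.15, the sterol sensor Insig1 with 3.64 ± 0.05 and Idi1, an isomerase of isoprenoid synthesis, with 3.62 ± 0.07. The others of the 15 largest rises were the muscle genes Ckm, Pgm5, Mymx, Cacna1s and Rbm24, the sterol genes Mvd, Nsdhl, Lss and Msmo1, the matrix proteoglycan Aspn (3.18 ± 0.15) and the predicted gene Gm10800. Gm10800 read 0.741, 0.428 and 1.43 CPM in GM and 5.01, 10.5 and 13.3 CPM at 24 h. These libraries did not overlap, but the 24 h values spread widely and the change of 3.48 ± 0.86 has a large error.

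The largest falls came from amino acid supply and from histones. The cystine transporter Slc7a11 fell by 3.85 ± 0.12 on the log2 scale (14.5-fold lower), the pseudokinase Trib3 by 3.65 ± 0.10, Cth, which makes cysteine, by 3.55 ± 0.13 and the large neutral amino acid transporter Slc7a5 by 2.85 ± 0.07. Of the remaining 11, 9 were replication-dependent histone genes, and the others were the glutathione transferase Gsta1 (−2.81 ± 0.09) and the monocarboxylate transporter family member Slc16a11 (−2.63 ± 0.09). Reads of Gsta1 may be shared with its close relatives.

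**Figure D2:**
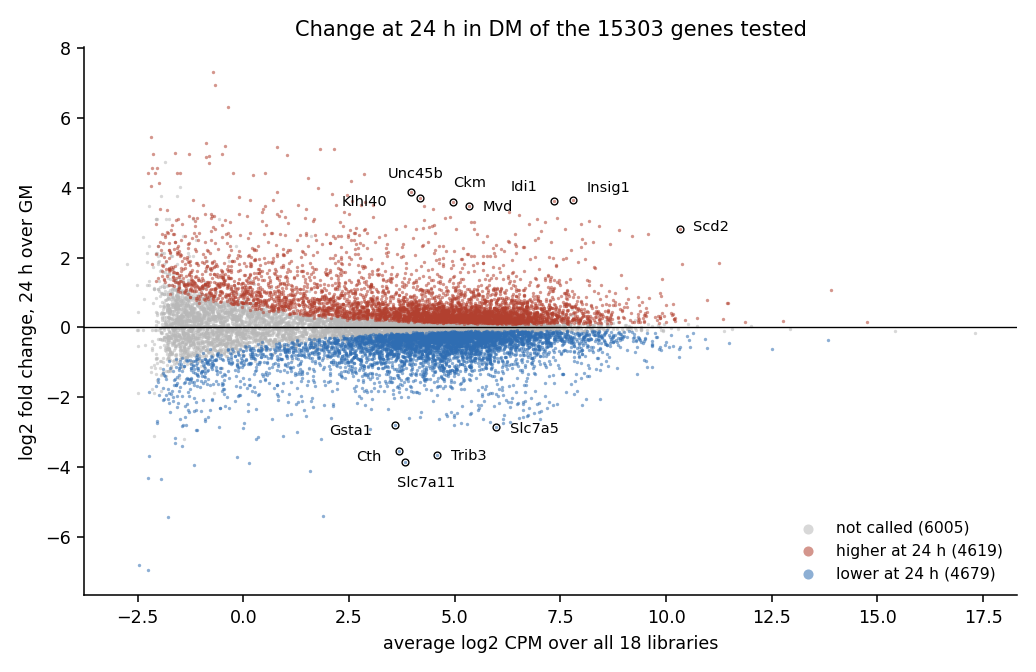
Each point is 1 of the 15303 genes tested, with its average log2 CPM over all 18 libraries on the horizontal axis and its log2 fold change of 24 h over GM on the vertical axis. The 4619 genes called higher are red, the 4679 called lower are blue and the rest grey, and circled genes are among the largest changes or lead a gene list.

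Cholesterol synthesis changed as a block. Insig1, which holds the SREBP escort in the endoplasmic reticulum when sterols are plentiful, read 37.2, 37.4 and 37.7 CPM in GM and 475, 481 and 447 CPM at 24 h. Idi1 read 26.1, 26.4 and 27.7 CPM in GM and 330.4, 346 and 309 CPM at 24 h. Mvd, the decarboxylase of the mevalonate pathway, read 8.12, 7.33 and 9.71 CPM in GM and 94.0, 95.2 and 93.3 CPM at 24 h. In each of these genes the groups were separated by a gap many times the spread within a group, and the adjusted p was 6.5e-22 for Insig1 by edgeR's quasi-likelihood test. All 20 members of the cholesterol synthesis list rose at least 2-fold, with a median of 2.81 and a range from 1.02 (Ebp, a sterol isomerase) to 3.62 (Idi1). Next after Idi1 and Mvd came the sterol dehydrogenase Nsdhl (3.32 ± 0.07) and lanosterol synthase, Lss (3.22 ± 0.05). Hmgcs1, which makes the substrate of the rate-limiting enzyme, rose by 3.04 ± 0.06, from 60.4, 63.0 and 70.7 CPM to 539, 562 and 492 CPM.

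Most sterol synthesis genes stood higher at 24 h than at 12 or 48 h. All 20 cholesterol synthesis genes were higher at 24 h than at 12 h (median 1.29), and at 48 h 17 were lower than at 24 h and 1 higher (median −0.37). Genes of sterol uptake, export and control mostly rose too, with a smaller median. Insig1, given above, belongs to this list and had its largest rise (3.64). Of 15, 13 rose and 1 fell, with a median of 0.84. The sterol carrier Stard4 read 9.53, 11.2 and 12.0 CPM in GM and 47.5, 48.7 and 53.0 CPM at 24 h, a rise of 2.19 ± 0.08. The cholesterol exporters Abca1 (2.64 ± 0.18) and Abcg1 (2.09 ± 0.33), which pump sterol out of the cell, also rose, and so did the ubiquitin ligase Mylip (1.07 ± 0.08). Both SREBP genes rose, Srebf2 by 0.84 ± 0.06 and Srebf1 by 0.74 ± 0.08, while their escort Scap fell (−0.30 ± 0.07). Nr1h3, a nuclear receptor for oxysterols, lay at −0.32 ± 0.22 and was not called.

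Fatty acid and lipid synthesis followed. Of 15 members tested, 14 rose and none fell, with a median of 1.86. The desaturase Scd2 read 322, 304 and 360.2 CPM in GM and 2339.6, 2290.0 and 2353 CPM at 24 h, a rise of 2.82 ± 0.05, and Scd1 rose by 2.61 ± 0.05. Acss2, which activates acetate (2.92 ± 0.09), Acsl3, which activates long fatty acids (2.44 ± 0.05), and the desaturase Fads2 (2.44 ± 0.08) followed. Fatty acid synthase, Fasn, rose by 1.35 ± 0.07 and the carboxylase Acaca by 0.79 ± 0.05. Gpam, the acyltransferase that starts triglyceride synthesis, lay at −0.06 ± 0.06 and was not called. Pnpla3 was too low to test.

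The promoter of Hmgcs1 is shown because it was the only cholesterol synthesis window that held the sterol element searched, TCACNCCAC, on either strand. RefSeq promoter windows of the build GRCm38.p6 run from 250 bases before to 50 after a start site, and 32851 windows cover 27025 genes. Of 15 cholesterol synthesis genes with a window 1 held the element, against 1.44% of all genes with a window, and none of 10 uptake and control genes and 12 fatty acid genes did, which says only that these letters are not in those windows. The capitals mark the match, 137 bases before the start site, in chr13:119690168-119690267 on the plus strand.

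Hmgcs1: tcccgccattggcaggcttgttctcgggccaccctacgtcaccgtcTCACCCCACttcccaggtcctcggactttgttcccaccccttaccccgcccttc

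Amino acid supply moved the opposite way. Slc7a11, which imports cystine in exchange for glutamate, read 48.5, 50.4 and 41.2 CPM in GM and 3.10, 3.12 and 3.47 CPM at 24 h. Trib3, an inhibitor of ATF4 that ATF4 itself induces, read 78.1, 86.0 and 64.9 CPM in GM and 5.91, 5.44 and 7.0 CPM at 24 h. Asns, which makes asparagine, read 287, 306 and 276 CPM in GM and 60.6, 59.8 and 53.6 CPM at 24 h. The third GM library was the lowest GM library for each of the 3 genes, and it still lay far above every 24 h library. The adjusted p was 7.1e-17 for Slc7a11, 2.1e-17 for Trib3 and 1.3e-18 for Asns by edgeR's quasi-likelihood test.

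All 17 enzymes of amino acid synthesis and one-carbon metabolism fell, 16 of them at least 2-fold, with a median of −2.03. After Cth the largest falls were those of Shmt2, the mitochondrial serine hydroxymethyltransferase (−2.45 ± 0.07), Asns (−2.32 ± 0.05) and Mthfd2, a mitochondrial folate enzyme (−2.27 ± 0.07). The serine pathway fell at each of its steps, Phgdh by 2.21, Psat1 by 1.30 and Psph by 2.24 on the log2 scale. Got1, an aspartate aminotransferase, changed least (−0.68 ± 0.05). Among 13 amino acid transporters 9 fell and 3 rose (median −1.32). Slc7a3, a cationic amino acid transporter, fell from 2.34, 3.24 and 2.76 CPM to 0.467, 0.510 and 0.594 CPM, and Slc7a1, of the same family, by 1.70 ± 0.06 on the log2 scale. The 3 that rose were the taurine transporter Slc6a6 (0.64 ± 0.04), the cationic transporter Slc7a2 (0.60 ± 0.06) and Slc38a2 (0.24 ± 0.05), which carries small neutral amino acids.

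Among 16 regulators tied to ATF4, 14 fell and 1 rose (median −1.13). Atf4 itself fell by 1.00 on the log2 scale. Chac1, which degrades glutathione, fell from 43.6, 42.8 and 30.0 CPM to 6.41, 5.95 and 7.26 CPM (−2.57 ± 0.12), the secreted stress factor Gdf15 by 2.06 ± 0.10 and Ddit3, a stress transcription factor, by 1.80 ± 0.08 on the log2 scale. Vldlr, a lipoprotein receptor, was the member that rose (0.72 ± 0.06), and Ddit4, an inhibitor of mTORC1, lay at −0.07 ± 0.08 and was not called. The enzymes that charge tRNAs with amino acids fell in 18 of 20 cases, with a median of −1.25. The largest falls were those for tryptophan (Wars, −1.65 ± 0.05), methionine (Mars1, −1.60 ± 0.05), glycine (Gars, −1.55 ± 0.05) and valine (Vars, −1.54 ± 0.07). Qars, for glutamine, rose slightly (0.16 ± 0.05), and Dars, for aspartate, lay at 0.06 ± 0.05 and was not called.

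These groups were also lower at 24 h than at 12 h, and their medians moved less between 24 and 48 h. At 24 h 16 of the 17 synthesis enzymes were lower than at 12 h (median −1.70) and 18 of the 20 tRNA synthetases were (median −0.80). From 24 to 48 h 3 of the 17 enzymes rose and 3 fell (median −0.02), and 12 of the 20 synthetases rose and 4 fell (median 0.20). Glutathione and oxidative defence genes fell in 11 of 17 cases and rose in 4 (median −0.28). The quinone reductase Nqo1 fell by 1.64 ± 0.07 on the log2 scale, Gclc, which limits glutathione synthesis, by 1.06 ± 0.06, Hmox1, which breaks down haem, by 0.97 ± 0.07 and the thioredoxin reductase Txnrd1 by 0.96 ± 0.04. Catalase, Cat (0.29 ± 0.04), and the mitochondrial dismutase Sod2 (0.17 ± 0.04) rose slightly. Endoplasmic reticulum chaperones were split, with 8 of 20 higher, 6 lower and a median of 0.04. Without the third 24 h library 9 were higher and 3 lower, with a median of 0.076. The co-chaperone Dnajb9 (0.55 ± 0.10) and the stress factor Xbp1 (0.46 ± 0.04) rose, Herpud1, of the degradation complex, fell (−0.48 ± 0.05), and the main chaperone Hspa5 lay at −0.06 ± 0.05 and was not called.

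The ATF4 composite element TGATGNAA, read on both strands, was in the windows of 3 of 15 synthesis enzymes, 2 of 7 transporters, 5 of 15 ATF4-linked regulators and 5 of 13 tRNA synthetases with a window. The shares are 20.0%, 28.6%, 33.3% and 38.5%, beside 4.51% of all genes with a window and 2.72% of the tested ones. Vldlr, the regulator that rose, was among the genes with the element. The 4 sequences below, from genes with large falls whose match lies before the start site, show the element in its promoter context, with the matches in capitals. They are chr3:50443614-50443713 (minus strand, the nearer of 2 matches 47 bases before the start), chr2:119351003-119351102 (plus strand, 193 bases), chr6:7693210-7693309 (minus strand, 23 bases) and chr11:120643798-120643897 (minus strand, 103 bases). Pycr1, which makes proline, fell by 2.03 on the log2 scale.

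Slc7a11: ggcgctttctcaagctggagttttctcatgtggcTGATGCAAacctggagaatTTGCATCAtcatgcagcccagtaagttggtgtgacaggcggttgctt
Chac1: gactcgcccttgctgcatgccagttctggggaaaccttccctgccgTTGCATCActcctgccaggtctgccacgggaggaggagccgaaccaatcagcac
Asns: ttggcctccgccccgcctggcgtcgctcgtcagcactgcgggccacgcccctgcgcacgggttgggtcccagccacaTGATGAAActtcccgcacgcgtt
Pycr1: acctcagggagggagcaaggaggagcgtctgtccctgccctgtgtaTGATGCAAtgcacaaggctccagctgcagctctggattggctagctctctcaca

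A match describes the letters in the window and says nothing about binding. Slc7a11 carries the element on both strands.

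**Figure D3:**
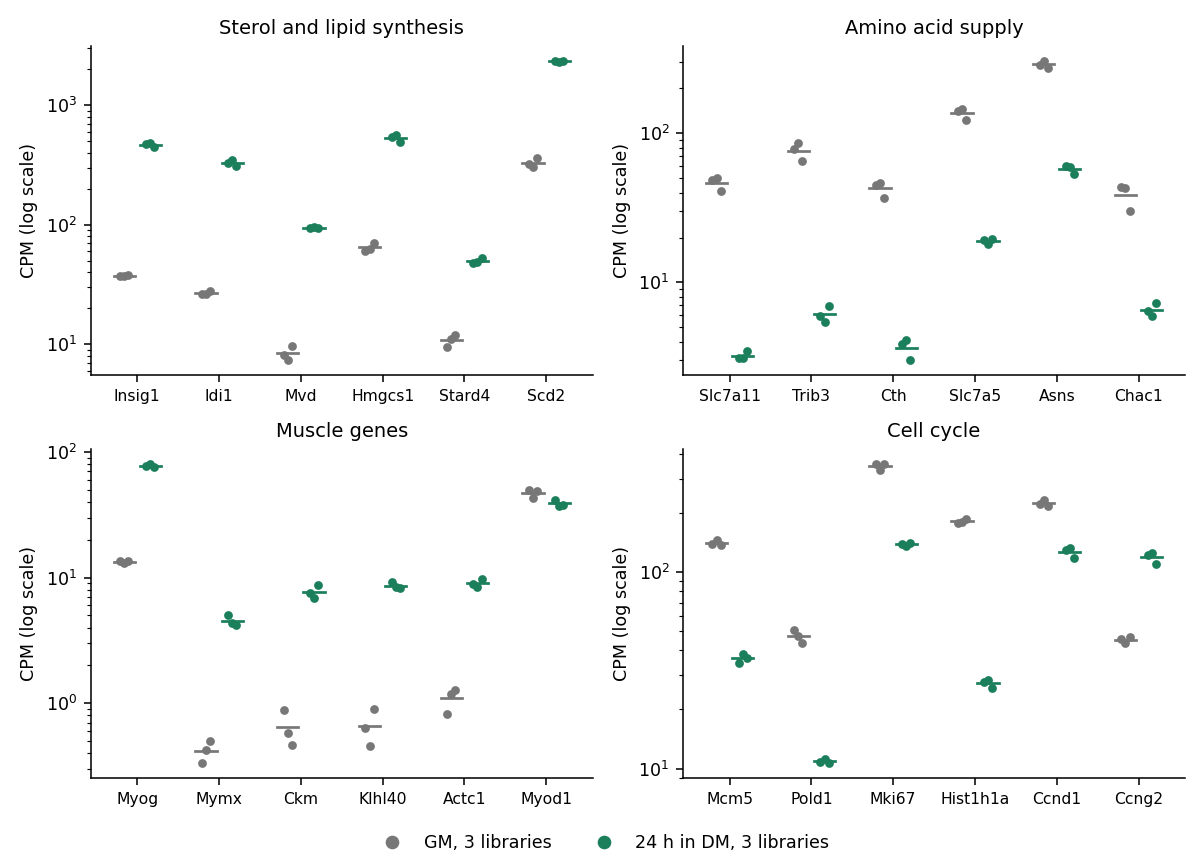
Points are the CPM of single libraries (log scale), 3 of GM in grey and 3 of 24 h in green, for 6 genes in each of 4 groups, and short lines are the means. No gene shown has overlapping groups: sterol and muscle genes lie above GM except Myod1, and amino acid and cell cycle genes lie below it except Ccng2.

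DNA replication genes fell without exception. Mcm5, a subunit of the replicative helicase, read 139, 147 and 138 CPM in GM and 34.6, 38.5 and 36.6 CPM at 24 h. Pold1, the catalytic subunit of DNA polymerase delta, read 50.6, 47.6 and 43.7 CPM in GM and 10.8, 11.2 and 10.7 CPM at 24 h. For both genes every 24 h library lay below every GM library. All 42 members of the list fell, 35 of them at least 2-fold, with a median of −1.41. The helicase subunit Mcm2 (−1.88 ± 0.06) and the licensing factor Cdt1 (−1.84 ± 0.10) were next in size. The smallest falls were those of Rpa3 (−0.32 ± 0.07), of the single-strand binding complex, and Gins3 (−0.38 ± 0.06), of the replicative helicase. All 42 were also lower than at 12 h (median −1.53), and at 48 h 8 were higher and 10 lower than at 24 h.

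Mitosis genes fell by less. All 34 were lower than in GM (median −0.88), 11 of them at least 2-fold, and all 34 were lower than at 12 h (median −1.42). The proliferation marker Mki67 read 356, 334 and 357 CPM in GM and 139, 136 and 142 CPM at 24 h (−1.33 ± 0.05). The kinetochore subunit Spc24 fell most (−1.88 ± 0.07), before Incenp (−1.59 ± 0.06) and Aurkb (−1.34 ± 0.06), of the chromosomal passenger complex. The checkpoint kinase Bub1 fell least (−0.36 ± 0.06). Among 19 G1 cyclins, CDKs and E2F factors 13 fell and 2 rose (median −0.45). Cyclin E1, Ccne1, fell by 1.63 ± 0.09 on the log2 scale and cyclin E2, Ccne2, by 1.39 ± 0.10, the repressor E2f7 by 1.51 ± 0.08 and cyclin D2, Ccnd2, by 1.20 ± 0.05. Cyclin D1, Ccnd1, fell from 223, 233 and 219 CPM to 129.6, 134 and 118 CPM (−0.82 ± 0.06). Cyclin D3, Ccnd3, lay at 0.02 ± 0.06 and was not called. E2f2 rose (0.42 ± 0.08), and so did Tfdp2 (0.18 ± 0.06), which lost its call without the third 24 h library or the second GM library.

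Genes of cell cycle exit mostly rose, in 14 of 17 cases, with 3 falls and a median of 0.48. Ccng2, a cyclin of quiescent cells, read 45.9, 43.4 and 46.6 CPM in GM and 122, 125 and 110.3 CPM at 24 h, and its rise of 1.39 ± 0.05 was the only one of at least 2-fold in the list. The CDK inhibitor Cdkn1a, a target of MyoD, read 29.7, 30.9 and 30.4 CPM in GM and 44.5, 40.0 and 39.2 CPM at 24 h. Its groups did not overlap, and its rise was small (0.44 ± 0.05, adjusted p = 4.3e-07 by edgeR's quasi-likelihood test). The inhibitor Cdkn1b rose by 0.77 ± 0.05, the antiproliferative factor Btg2 by 0.86 ± 0.05 and the retinoblastoma gene Rb1 by 0.70 ± 0.06. The falls were those of the pocket protein Rbl1 (−1.24 ± 0.06) and the CDK inhibitors Cdkn2c (−0.66 ± 0.07) and Cdkn2d (−0.58 ± 0.07). Cdkn1c rose by 0.88 ± 0.29 from low levels, with overlapping libraries, and lost its call without the first 24 h library (0.64) or the third GM library.

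Replication-dependent histones, the genes whose transcripts are made in S phase and lack a poly(A) tail, fell in 63 of 64 cases, each at least 2-fold, with a median of −2.22. Hist1h3g read 76.7, 72.5 and 77.4 CPM in GM and 12.4, 11.6 and 8.45 CPM at 24 h, and Hist1h1a, a linker histone, 179, 179.6 and 186 CPM and 27.7, 28.4 and 25.9 CPM. No 24 h library came near the GM range. Hist2h2be, which also gives polyadenylated transcripts, was the exception (0.60 ± 0.19). At 48 h 58 of the 64 were higher than at 24 h. Reads of near-identical histone copies may be divided among them in ways the files do not show. Chromatin genes fell in 16 of 21 cases and rose in 4 (median −0.58). The maintenance methylation genes Uhrf1 (−1.64 ± 0.05) and Dnmt1 (−1.34 ± 0.05), the chromatin protein Hmgb2 (−1.45 ± 0.08) and the lamin Lmnb1 (−1.39 ± 0.07) fell most. Ezh2, the Polycomb methyltransferase of dividing cells, fell by 0.83, while its relative Ezh1 rose (0.78 ± 0.04), as did the demethylation enzyme Tet2 (0.52 ± 0.07).

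Promoter sequences of 4 cell cycle genes show the elements searched, again as descriptions. The E2F site TTTNGCGC was in the windows of 10 of 33 replication genes (30.3%), beside 1.57% of all genes with a window and 2.82% of tested ones. The cell cycle homology element TTTGAA was in 21 of 28 mitosis genes (75.0%), beside 20.2% of all and 14.2% of tested genes. Both strands were read. The stretches are chr8:75109314-75109413 (plus strand, where 2 E2F matches on opposite strands overlap), chr4:108579354-108579453 (plus strand), chr7:135716425-135716524 (minus strand, 2 matches) and chr11:99024190-99024289 (minus strand). Orc1, of the origin recognition complex, fell by 1.46 on the log2 scale and Top2a, which untangles chromosomes, by 1.18.

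Mcm5: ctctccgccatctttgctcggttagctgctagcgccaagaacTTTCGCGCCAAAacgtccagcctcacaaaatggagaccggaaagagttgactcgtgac
Orc1: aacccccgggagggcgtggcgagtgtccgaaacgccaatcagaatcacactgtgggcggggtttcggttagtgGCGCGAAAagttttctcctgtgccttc
Mki67: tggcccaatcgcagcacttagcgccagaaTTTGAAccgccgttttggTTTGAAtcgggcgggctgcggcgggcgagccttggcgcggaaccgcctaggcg
Top2a: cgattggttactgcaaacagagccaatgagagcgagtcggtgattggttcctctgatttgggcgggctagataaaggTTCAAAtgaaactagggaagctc

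Growth genes also fell. All 25 ribosome biogenesis factors fell, 12 of them at least 2-fold (median −0.99). Nop56, of the box C/D ribonucleoprotein, fell from 177, 191 and 162 CPM to 49.9, 50.6 and 46.9 CPM (−1.85 ± 0.05), the pseudouridine synthase Dkc1 by 1.68 ± 0.06, its partner Gar1 by 1.64 ± 0.18 and the processing factor Rrp12 by 1.56 ± 0.06 on the log2 scale. All 16 nucleotide synthesis genes fell (median −1.09), led by Cad, which starts pyrimidine synthesis (−1.91 ± 0.09). Of 78 cytosolic ribosomal protein genes 70 fell and 1 rose, but by far less, with a median of −0.29 and none at least 2-fold. Rpl12 had the largest of these falls (−0.65 ± 0.05), and Rps27 rose (0.14 ± 0.05) but lost its call without the first or the second 24 h library or the second GM library. Myc, which drives ribosome production, fell from 13.9, 13.5 and 10.7 CPM to 5.98, 4.62 and 5.45 CPM (−1.25 ± 0.12). The wider list of Myc and mitogen response genes was split, with 10 of 30 higher, 12 lower and a median of −0.10. Fosl1, of the AP-1 family (−1.31 ± 0.13), and the Max partner Mxd3 (−1.32 ± 0.08) fell, while Mxd4, which opposes Myc (1.08 ± 0.06), the phosphatase Dusp1 (0.92 ± 0.06) and Fos (0.90 ± 0.17) rose. Egr1 lay at −0.23 ± 0.11 and was not called.

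Myogenic factors took different directions. Myog, which drives terminal differentiation, read 13.4, 13.1 and 13.5 CPM in GM and 77.4, 80.4 and 75.2 CPM at 24 h. Its groups were far apart, with a rise of 2.54 ± 0.07 (5.81-fold, adjusted p = 1.7e-17 by edgeR's quasi-likelihood test). Myod1, which commits cells to muscle, read 49.8, 42.6 and 48.7 CPM in GM and 41.5, 37.1 and 37.9 CPM at 24 h, so it lay slightly below GM (−0.28 ± 0.07) and above its 12 h level (0.58). Myf5, its partner in commitment, fell from 75.6, 76.0 and 70.3 CPM to 41.1, 42.0 and 36.3 CPM (−0.89 ± 0.06). Mef2a rose by 0.98 ± 0.06 and Mef2c by 0.57 ± 0.12 from 3.82, 4.09 and 3.59 CPM to 5.11, 5.83 and 6.14 CPM. In all, 9 of 15 members tested rose and 3 fell (median 0.28), the third fall being that of the E protein Tcf3 (−0.63 ± 0.06). Myf6, Tead1 and Tead4 were not called.

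The inhibitors of the MyoD family were also divided. Of 13, 6 fell and 4 rose, with a median of −0.45. Without the third 24 h library 5 fell and 5 rose, with a median of −0.36. Upper-quartile and total-count scaling also gave 5 falls and 5 rises, and DESeq2 gave 5 falls and 4 rises. Id3 read 156, 158 and 166 CPM in GM and 36.9, 38.3 and 38.0 CPM at 24 h, and Id1 79.0, 66.0 and 73.5 CPM and 13.3, 13.7 and 12.1 CPM. In both genes all 24 h libraries lay below all GM libraries. Id1 fell by 2.48 ± 0.09, Id3 by 2.09 ± 0.08, Id2 by 2.04 ± 0.11 and Twist2 by 1.16 ± 0.09 on the log2 scale. The Notch target Heyl rose from 0.704, 0.886 and 0.931 CPM to 5.98, 5.95 and 6.60 CPM (2.86 ± 0.15), and the repressor Bhlhe40 rose by 0.80 ± 0.06. In the Notch list 4 of 12 rose and 3 fell (median −0.11), beside 30.2% higher and 30.6% lower among all genes tested. The ligand Dll1 rose by 2.89 ± 0.12, from 1.37, 2.29 and 1.96 CPM to 12.6, 15.3 and 14.5 CPM, while the ligand Jag2 (−0.92 ± 0.09) and Lfng (−1.06 ± 0.09), which modifies the receptors, fell. The receptors Notch1 (−0.12 ± 0.07) and Notch3 (−0.10 ± 0.09) and the target Hes1 (−0.14 ± 0.08) were not called.

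Both membrane proteins that carry out fusion rose. Mymx (myomixer) read 0.334, 0.428 and 0.499 CPM in GM and 5.01, 4.33 and 4.16 CPM at 24 h, and Mymk (myomaker) 2.45, 2.29 and 2.69 CPM and 12.2, 11.8 and 12.3 CPM. Their rises of 3.40 ± 0.18 and 2.28 ± 0.11 were the only 2-fold rises called among 18 fusion genes, of which 11 rose and 2 fell (median 0.33). The laminin receptor chain Itga7 (0.84 ± 0.05), Cd9 (0.63 ± 0.05) and the membrane repair protein Dysf (0.64 ± 0.09) followed. Filamin C, Flnc, fell (−0.39 ± 0.08), and the call of Ehd1 (−0.43 ± 0.12) may rest on reads shared with a second gene model of that name. The muscle caveolin Cav3 (1.10 ± 0.53) was not called.

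Sarcomere genes rose in nearly all cases. In the thick filament 14 of 16 members rose, all at least 2-fold, and none fell. The median was 2.28, or 2.06 with Myl2 placed at no change. Myl2 had no count in GM and 2 counts at 24 h. With GM at a floor of 3 counts over the group its log2 bound was −0.67, below no change. Mylpf, the fast regulatory light chain, read 12.6, 13.8 and 13.8 CPM in GM and 97.8, 95.1 and 82.9 CPM at 24 h (2.78 ± 0.07). The myosin-binding protein Mybph rose by 2.97 ± 0.12, the embryonic heavy chain Myh3 by 2.42 ± 0.09, the perinatal chain Myh8 by 2.57 ± 0.39 and the M-band protein Myom1 by 1.82 ± 0.17. Myh4, a fast adult heavy chain, had 0, 2 and 1 counts in the GM libraries and 36, 57 and 31 at 24 h, a called rise whose size such low counts do not fix. The same holds for Mybpc1, with 3 counts over the GM libraries and 23 over those of 24 h, and for Myh2, with 3 and 20. Myl2 and Mybpc2 were not called.

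Thin filament genes rose in 16 of 19 cases with 1 fall (median 2.01). Actc1, the actin of embryonic and cardiac muscle, read 0.815, 1.19 and 1.26 CPM in GM and 8.95, 8.41 and 9.67 CPM at 24 h (3.02 ± 0.14). The actin nucleators Lmod3 (2.94 ± 0.14) and Lmod2 (2.82 ± 0.29) and the calcium sensor troponin C, Tnnc2 (2.69 ± 0.11), followed. Skeletal actin, Acta1, rose by 2.38 ± 0.08, troponin T3, Tnnt3, by 2.56 ± 0.09 and nebulin, Neb, by 1.34 ± 0.10. Tpm3, a tropomyosin that non-muscle cells also make, was the member that fell (−0.35 ± 0.04). Z-disc and elastic filament genes rose in 14 of 17 cases with no fall. Their median was 1.52, and 1.20 without the third 24 h library. The member at the median, Myoz1, had 0, 2 and 2 counts in GM and 0, 7 and 6 at 24 h and was not called. The LIM protein Csrp3 rose by 2.27 ± 0.33. Titin, Ttn, read 251, 229 and 236 CPM in GM and 717, 637 and 1232 CPM at 24 h, with the third 24 h library highest, and its rise was 1.85 ± 0.16 with that library and 1.52 without it. The intermediate filament desmin, Des, which myoblasts already express, rose by 0.28 ± 0.05. The stress-induced Ankrd1 lay at −0.06 ± 0.04 and was not called.

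Chaperones of sarcomere assembly included Unc45b and Klhl40, the largest rises among genes with an average log2 CPM of at least 3. Unc45b read 0.297, 0.153 and 0.233 CPM in GM and 3.10, 3.51 and 3.47 CPM at 24 h, and Klhl40 0.630, 0.458 and 0.897 CPM and 9.21, 8.44 and 8.22 CPM. For both genes every 24 h library lay far above every GM library. Of 12 members 7 rose and 2 fell (median 1.26). Klhl41 (2.82 ± 0.12) and Klhl31 (2.08 ± 0.12), relatives of Klhl40, and Smyd1, a methyltransferase that acts on myosin with Unc45b (1.66 ± 0.10), rose. The general heat shock proteins Hsp90aa1 (−0.22 ± 0.05) and Hspb1 (−0.21 ± 0.06) fell slightly, the latter without a call when the second 24 h library was left out.

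Membrane genes of excitation and contraction rose as well. In the calcium list 14 of 21 rose and 1 fell (median 0.52). Without the third 24 h library 14 rose and none fell, with a median of 0.73. The voltage sensor Cacna1s read 0.408, 0.244 and 0.465 CPM in GM and 3.27, 3.14 and 3.60 CPM at 24 h (3.16 ± 0.23), and the calcium store protein Casq2 1.59, 1.34 and 1.36 CPM and 11.5, 13.1 and 12.5 CPM (3.11 ± 0.14). Neither gene had overlapping groups. Hrc, another store protein (3.07 ± 0.15), Trdn, which anchors the release channel (2.51 ± 0.25), the release channel Ryr1 (1.57 ± 0.11) and the pump Atp2a1 (1.86 ± 0.12) rose, while the widely expressed pump Atp2a2 lay at −0.02 ± 0.04 and was not called. Stim1, a sensor of the store, fell by 0.33 ± 0.10 on the log2 scale and lost its call without the third 24 h library. All 11 tested genes of the neuromuscular junction and the action potential rose (median 0.75). The foetal acetylcholine receptor subunit Chrng rose from 3.52, 3.06 and 3.92 CPM to 21.3, 19.5 and 23.1 CPM (2.61 ± 0.09) and the potassium channel Kcnj2 by 1.93 ± 0.08. The receptor kinase Musk (0.48 ± 0.06) and the clustering protein Rapsn (0.45 ± 0.05) changed by less.

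Against the 12 h libraries, 14 of 16 thick filament, 16 of 19 thin filament and 18 of 21 calcium genes were higher at 24 h, with medians of 1.34, 1.27 and 1.07. From 24 to 48 h 15, 16 and 18 of them rose further, with medians of 2.07, 1.71 and 1.11. In the same interval most sterol genes fell, as given above.

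The E-box CAGCTG, a palindrome that MyoD family factors bind, was in the windows of 6 of 15 thick filament, 7 of 15 thin filament, 6 of 12 calcium and 7 of 11 muscle energy genes. Of all genes with a window 18.3% held it, and so did 30.5% of the genes called at least 2-fold higher and 15.2% of those called at least 2-fold lower. The MEF2 site was in 0.636% of all genes with a window and in 1 gene of these 4 lists, Ckb. The stretches below, shown for the position of the E-box, belong to members with a match and the largest fitted changes, from few counts in GM. They are chr11:67237698-67237797 (plus strand, the match 67 bases before the start) and chr7:140900447-140900546 (minus strand, 19 bases before it).

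Myh4: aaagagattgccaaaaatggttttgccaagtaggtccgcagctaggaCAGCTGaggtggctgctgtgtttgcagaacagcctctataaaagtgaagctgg
Cox8b: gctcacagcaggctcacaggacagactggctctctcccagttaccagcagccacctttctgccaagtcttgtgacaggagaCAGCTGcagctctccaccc

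Energy genes differed by kind. In the list of muscle energy isoforms 9 of 13 rose and 2 fell (median 0.60). The rises included Ckb (0.49 ± 0.07), a brain-type creatine kinase and not a muscle isoform. The creatine kinase Ckm read 0.890, 0.581 and 0.465 CPM in GM and 7.51, 6.85 and 8.71 CPM at 24 h (3.58 ± 0.19), with no overlap. The mutase Pgam2 rose by 2.29 ± 0.23 and myoglobin, Mb, by 1.66 ± 0.22. Cox8b, a muscle isoform of cytochrome oxidase, had 3, 0 and 2 counts in GM and 36, 38 and 36 at 24 h. Cox6a2, another such isoform, fell (−1.46 ± 0.30), and so did Eno3 (−0.17 ± 0.04). Glycolysis genes rose in 13 of 14 cases (median 0.76). Aldoc, an aldolase of brain and other tissues, rose from 0.482, 1.28 and 1.13 CPM to 11.3, 12.0 and 10.7 CPM (3.52 ± 0.19), the phosphofructokinase Pfkl by 1.29 ± 0.06 and Gpi1 by 1.05 ± 0.06, and hexokinase 2, Hk2, fell (−0.30 ± 0.04). At 48 h all 14 were lower than at 24 h (median −0.59). Targets typical of hypoxia rose in 16 of 19 cases and fell in 2 (median 0.80). Bnip3, which marks mitochondria for removal, read 23.8, 24.6 and 26.5 CPM in GM and 142, 148 and 129 CPM at 24 h (2.49 ± 0.07), and Pdk1, which limits pyruvate oxidation, rose by 2.30 ± 0.07. The groups were well separated for Bnip3. Adm, a vasodilator peptide, had 0, 5 and 0 counts in GM and 47, 42 and 27 at 24 h. Vegfa (−0.40 ± 0.05) and the oxidase Ero1l (−0.47 ± 0.06) fell, and 16 of the 19 were lower at 48 h than at 24 h.

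Nuclear genes of the respiratory chain changed little. Of 22 subunits 11 fell and 1 rose, with a median of −0.14. Without the third 24 h library 10 fell and 3 rose, with a median of −0.075. Cyc1, of complex III, fell most (−0.85 ± 0.06). The share of counts from genes of the mitochondrial genome was 0.716 to 0.739% in GM and 0.869 to 0.971% at 24 h. Ppargc1a, a coactivator of mitochondrial biogenesis, rose from 0.815, 0.978 and 0.731 CPM to 2.20, 1.81 and 3.00 CPM (1.46 ± 0.25), in a list with 4 of 15 higher and 8 lower (median −0.16), where the polymerase Polg fell (−0.59 ± 0.05).

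Extracellular matrix genes rose in 19 of 34 cases and fell in 8 (median 0.20). Decorin, Dcn, a small proteoglycan, read 10.8, 8.86 and 12.1 CPM in GM and 49.6, 46.3 and 47.4 CPM at 24 h (2.18 ± 0.07). Thrombospondin 1, Thbs1, rose by 1.83 ± 0.05, the gelatinase Mmp2 by 1.41 ± 0.05, nidogen 2, Nid2, by 1.37 ± 0.07 and periostin, Postn, by 1.07 ± 0.10. Perlecan, Hspg2, read 398, 347 and 347 CPM in GM and 139.5, 105 and 293 CPM at 24 h, with the third library near the GM range. Its fall was 1.03 ± 0.22 on the log2 scale, and the change without that library was −1.56. The collagens Col1a1 (0.02 ± 0.10) and Col4a1 (−0.03 ± 0.04) were not called, and fibronectin, Fn1, lay at 0.04 ± 0.16 with the third 24 h library and at −0.34 without it. Of 13 integrin chains 7 rose and 2 fell (median 0.37), with Itga11, a collagen receptor chain, at 2.06 ± 0.23, Itgb5 at 0.88 ± 0.05 and Itgb7 at −0.95 ± 0.10.

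Signalling lists held calls both ways, to be read beside the 30.2% of all genes tested that were higher and the 30.6% that were lower. In the insulin-like growth factor axis 7 of 15 rose and 3 fell (median 0.16, and 0.030 without the third 24 h library). The growth factors Igf1 (1.61 ± 0.17) and Igf2 (1.14 ± 0.12) and the receptor substrate Irs1 (1.22 ± 0.06) rose, while the binding protein Igfbp2 fell from 589, 574 and 578 CPM to 359.9, 346 and 324 CPM (−0.76 ± 0.06). The receptor Igf1r lay at 0.16 ± 0.10 and was not called. In the TGF-beta, activin and BMP list 15 of 26 rose and 7 fell (median 0.21). The ligands Bmp4 (1.41 ± 0.09), Inhbb (1.32 ± 0.07) and Tgfb2 (1.25 ± 0.07) and the effector Smad3 (1.09 ± 0.06) rose. The BMP effector Smad9 (−1.29 ± 0.19), and the inhibitory Smad6 (−1.10 ± 0.12) and Smad7 (−0.96 ± 0.08) fell. The Wnt list had 10 of 20 higher and 2 lower (median 0.22), with the feedback gene Axin2 rising from 0.297, 0.336 and 0.233 CPM to 1.34, 1.42 and 1.32 CPM (2.22 ± 0.23) and the ligand Wnt4 falling (−1.55 ± 0.17). Among 12 YAP and TEAD genes no change reached 2-fold, with 5 higher and 2 lower (median 0.11). Ajuba (−0.19 ± 0.06), of these 2, lost its call without the second or the third 24 h library, or without the first GM library.

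Interferon response genes rose in 9 of 15 cases and fell in 2 (median 0.65). Ifit3 read 1.07, 0.703 and 0.632 CPM in GM and 3.61, 3.65 and 3.37 CPM at 24 h (2.15 ± 0.22), and the signal transducer Stat2 12.6, 13.7 and 14.7 CPM and 33.9, 32.7 and 35.1 CPM (1.31 ± 0.06). The groups did not overlap for either gene. Ifit1 rose by 1.72 ± 0.13, while Isg15 lay at 0.34 ± 0.25 and was not called. Bst2 fell (−0.57 ± 0.14). With every scaling other than TMM, and without the third 24 h library, the falls numbered 1.

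Splicing regulators of muscle stood at the head of their list, in which 9 of 17 rose and 7 fell (median 0.25). Rbm24 read 0.778, 0.825 and 1.10 CPM in GM and 8.25, 8.02 and 7.46 CPM at 24 h (3.13 ± 0.14). Rbfox1 had no count in the 3 GM libraries and 5 counts in each 24 h library, which is at least 4.70-fold higher when GM is set to a floor of 3 counts over the group. Celf2 rose by 0.80 ± 0.07, and the general factor Srsf7 fell by 0.95 ± 0.05 on the log2 scale. In proteolysis and autophagy 11 of 15 rose and 2 fell (median 0.40). The muscle ubiquitin ligases Trim63 (2.28 ± 0.16) and Fbxo32 (1.41 ± 0.05) rose and the autophagy receptor Sqstm1 fell (−0.63 ± 0.05). Iron genes rose in 5 of 8 cases and fell in 2. The transferrin receptor Tfrc read 58.3, 63.3 and 60.2 CPM in GM and 221, 239 and 206 CPM at 24 h (1.87 ± 0.06), and the exporter Slc40a1 rose by 1.37 ± 0.07, while the ferritin light chain Ftl1 fell (−0.55 ± 0.06). Tfrc was already lower at 24 h than at 12 h (−0.64).

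Of 18 apoptosis and survival genes 10 rose and 3 fell (median 0.18). Casp12, a caspase of the endoplasmic reticulum, rose from 18.7, 17.8 and 19.6 CPM to 102, 108 and 96.4 CPM (2.45 ± 0.06), the killer protein Bcl2l11 by 1.30 ± 0.08 and Cflar, an inhibitor of death receptor signalling, by 0.76 ± 0.04, and Bax fell (−0.37 ± 0.05). Of 10 imprinted genes 8 rose and 1 fell (median 0.73), with Mest at 2.86 ± 0.10 and Peg10 at −0.73 ± 0.14. Satellite and reserve cell genes rose in 8 of 9 cases (median 0.51), with the growth factor antagonist Spry1 at 2.09 ± 0.14, Sox8 at 2.16 ± 0.16 and Pax7 at 0.28 ± 0.10. Actomyosin genes of smooth and non-muscle cells fell in 8 of 15 cases and rose in 5 (median −0.16), with calponin, Cnn1, at −1.73 ± 0.26 and cytoplasmic beta actin, Actb, at −0.46 ± 0.04.

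**Figure D4:**
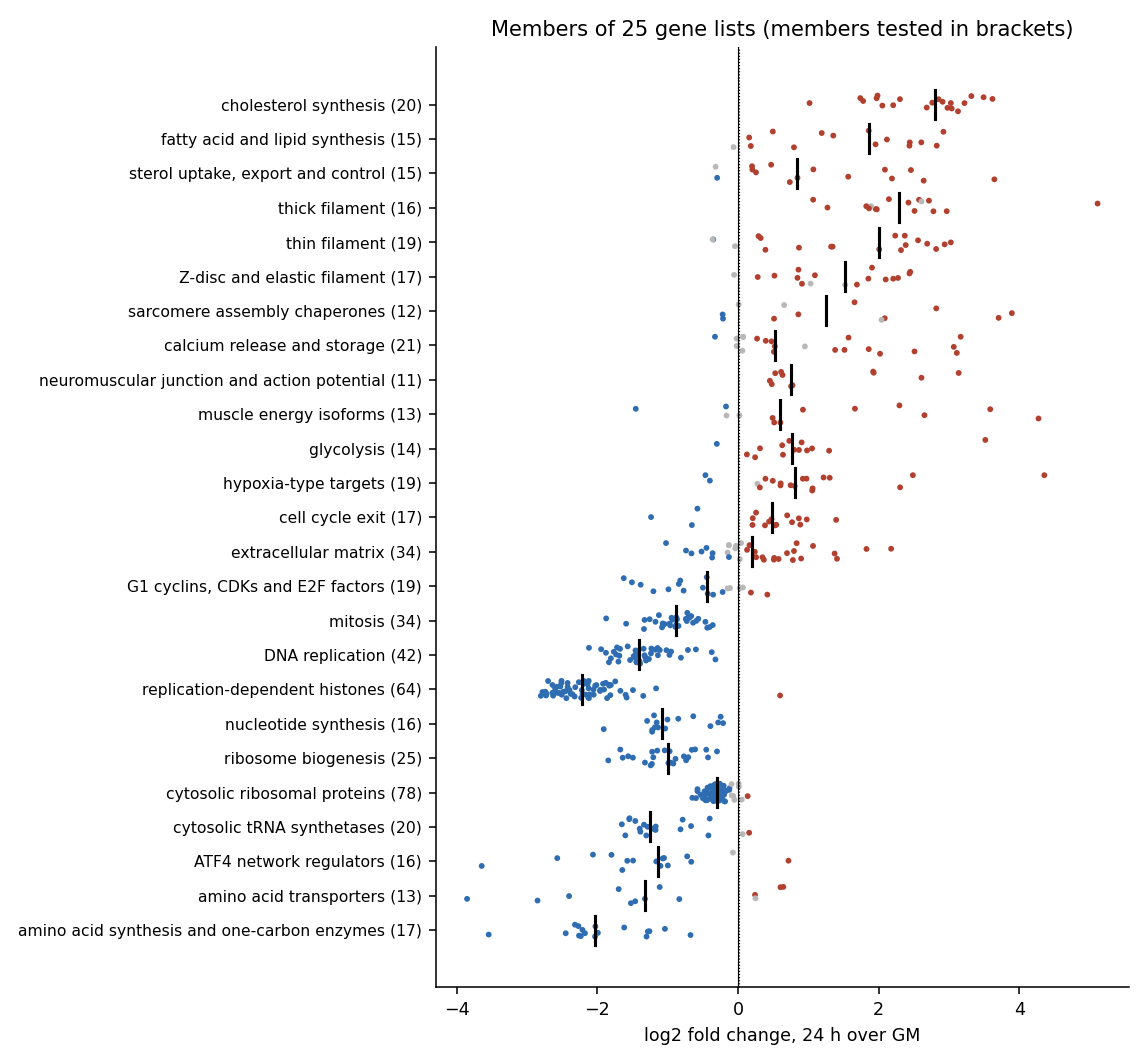
Each point is a member of 1 of 25 gene lists, placed by its log2 fold change of 24 h over GM (horizontal axis), in red where it rose, in blue where it fell and in grey where it was not called. Black bars are list medians, from 2.81 for cholesterol synthesis to −2.22 for histones, and the dotted line is the median of 0.0057 over all genes tested.

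Some genes lay higher or lower at 24 h than in GM and at 12 and 48 h, a comparison that left out 60 and 96 h. Among about 9497 genes with an average log2 CPM of at least 3, 454 lay above GM, 12 h and 48 h in all 3 contrasts and 596 below all 3. The 3 contrasts share the 24 h libraries, of which the third stood apart. The part of this in the counts was not tested. The margins were small, since none of the 454 and 1 of the 596, Chac1, differed at least 2-fold from all 3. By smallest margin the genes above were led by Ranbp3l, Ndrg2, Slc5a3, Kbtbd11 and Traf5. Kbtbd11, which encodes a kelch-domain protein, read 26.5, 27.2 and 28.5 CPM in GM and 80.9, 84.4 and 86.8 CPM at 24 h, and it lay 0.88 (log2) above 12 h and changed by −1.13 to 48 h. Slc5a3, which imports myo-inositol, rose by 1.13 ± 0.08, Ndrg2 by 1.50 ± 0.07, Ranbp3l by 1.46 ± 0.13 and Traf5, an adaptor of tumour necrosis factor receptors, by 1.04 ± 0.09. The 5 genes below were Chac1 and the histones Hist1h3g, Hist1h1a, Hist1h1c and Hist1h1d. Chac1 changed by −1.14 from 12 to 24 h and by 1.08 from 24 to 48 h.

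**Figure D5:**
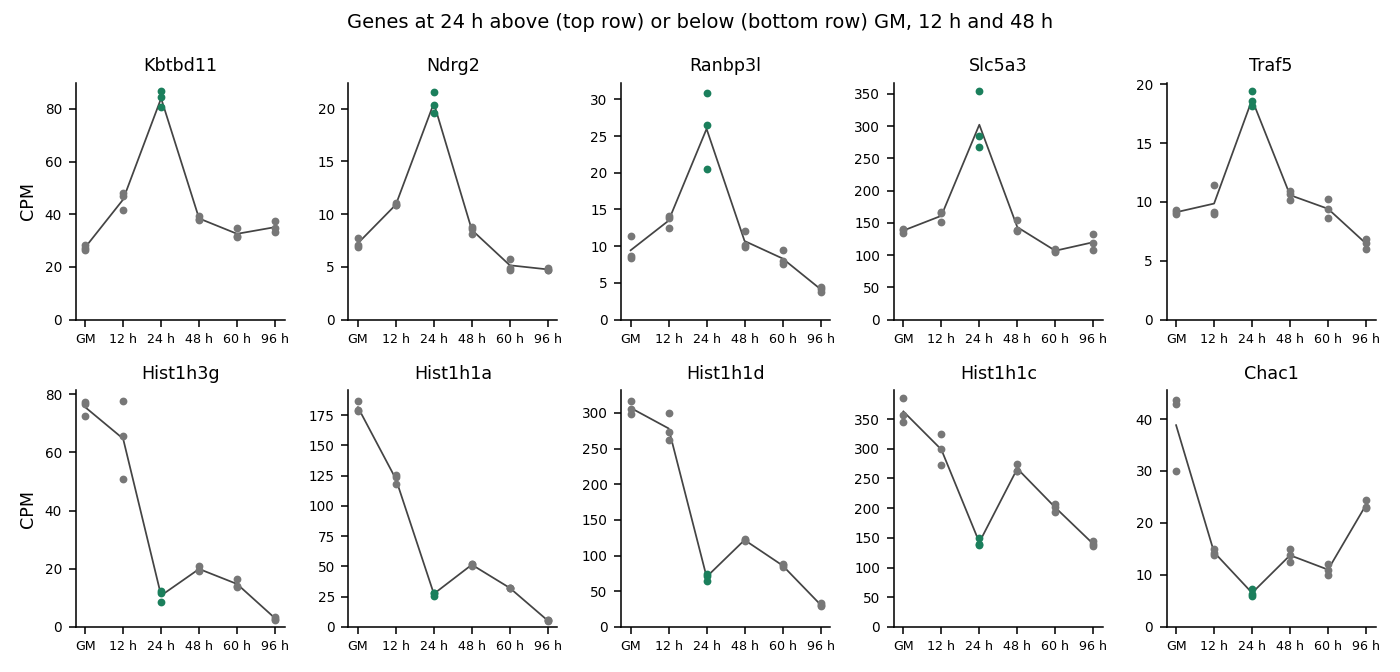
Points are the CPM (linear axes from 0) of 3 libraries in each of 6 groups, from GM to 96 h in differentiation medium, for 5 genes above (top row) and 5 below (bottom row) GM, 12 h and 48 h at 24 h, with 24 h in green and a line through the group means. The top row peaks at 24 h, and in the bottom row 48 h lies above 24 h, while the group means of the 4 histones at 96 h lie below those at 24 h.

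Gene classes differed in their balance. Of 12841 protein-coding genes 4076 were higher and 4351 lower (median −0.0081). Of 825 long non-coding genes 233 (28.2%) were higher and 100 (12.1%) lower (median 0.31). Of 852 pseudogenes 68 (7.98%) were higher and 200 (23.5%) lower (median −0.26). Among all genes tested 30.2% were higher and 30.6% lower, so the share of long non-coding genes called higher was near that of all genes. Among 623 gene models annotated as TEC, a class that awaits experimental evidence, 233 (37.4%) were higher and 17 (2.73%) lower, with a median of 0.57. Over the settings the count of TEC models called higher ran from 152, without the third 24 h library, to 257, without the second. It was 167 without the second GM library and 174 with the 6 libraries alone. The long non-coding RNA Gm7967 read 3.08, 2.51 and 2.76 CPM in GM and 17.6, 17.5 and 17.1 CPM at 24 h (2.65 ± 0.10), and Gm42743 107, 109.7 and 97.7 CPM and 28.8, 28.3 and 23.0 CPM (−1.97 ± 0.09). Neither had overlapping groups. The pseudogenes Gm13502 (3.79 ± 0.21) and Gm3571 (3.03 ± 0.20), the long non-coding Gm26870 (3.03 ± 0.67) and the TEC model Gm44171 (2.99 ± 0.28) had the other large rises. Gm20628, annotated as antisense (−2.99 ± 0.40), the pseudogenes Gm7901 (−2.11 ± 0.17) and Gm7993 (−1.73 ± 0.09) and Gm26619 (−1.73 ± 0.40) had the other large falls. Reads of pseudogenes may be shared with their parent genes, and no source used here says whether reads were counted by strand.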

How the data were processed

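RNA-seq libraries of C2C12 cells were strand-specific, from total RNA extracted with TRIzol, and were sequenced as paired reads, per the labels' protocols. The deposited table holds read counts per gene as whole numbers, and the submitters' processing notes name the mouse build mm10 and the tools STAR, RSEM and DESeq2, with no role or order. How whole numbers were obtained is not stated. Groups came from the sample titles.

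A model over the counts of all 18 libraries and 6 groups came from edgeR 4.0.16 (R 4.3.3), with TMM scaling, the filterByExpr filter, glmQLFit and glmQLFTest, and p-values were adjusted by Benjamini-Hochberg over the 15303 genes tested, with 0.05 as the threshold. The procedure was tested on simulated counts of 15014 genes, of which 67 were changed 1.5-fold, 67 2-fold and 66 4-fold. It recovered 79.1%, 95.5% and 100% of these, and 17 unchanged genes were called. Far fewer genes were changed there than were called here, and no library was made to stand apart. CPM values used TMM effective library sizes. Totals ran from 26.8 to 34.2 M counts in the 6 libraries compared.

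The 15 largest rises and the 15 largest falls with an average log2 CPM of at least 3 were named. So were up to 4 called members per gene list in its main direction, up to 2 against it, and a fixed panel. Of non-coding genes with an average log2 CPM of at least 1, the 5 largest rises and the 5 largest falls were named. At 24 h, 5 genes above and 5 below GM, 12 h and 48 h were named. The last were 5 protein-coding genes that lost a call without 1 library. Other list members, such as the least changed or those not called, were named after their values were seen. Members and lists were chosen with earlier results of these data known. Alternatives were other scalings, DESeq2 1.42.0, other filters, the 6 libraries alone, each library left out and a replicate block. Promoter windows were RefSeq's. The ATAC-seq samples were not used here, and some list members are counted but not reported here by name.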

Additional observations from a re-analysis of the deposited data

How the results depend on the processing

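The main count of 9298 genes called at 24 h against GM became 1991 (1112 higher, 879 lower) when a change of at least 2-fold was also required, and lay between 8587 and 9349 with other scalings, filters, DESeq2 (8807) or the 6 libraries alone (8813). With total-count scaling the split was 5174 higher and 4078 lower, and the median of all genes moved to 0.061. Leaving out 1 library gave 8546 to 8924 genes against GM, 7510 to 7979 against 12 h, 4054 to 4463 from 24 to 48 h, and 284 to 287 of the 292 named genes. From 24 to 48 h total-count scaling gave 1927 higher and 2876 lower, beside 2683 and 2262. Lower calls were also more numerous there with upper-quartile scaling (2366 and 2522), the CPM filter (2383 and 2437), no count filter (2369 and 2449) and the 6 libraries alone (2159 and 2404). Against 12 h, where 4258 were higher and 4055 lower, the order turned with the 6 libraries alone (3489 and 3889), no count filter (4068 and 4115) and protein-coding genes only (3894 and 3960), and without the second 12 h library or the first or the second 24 h library. Against GM, where 4619 were higher and 4679 lower, higher calls were more numerous with each other scaling, with DESeq2, with both filters and in every fit without 1 library. With total-count scaling 7 small list medians moved by over 1.5 times with no change of sign, such as −0.10 to −0.04 for Myc and mitogen response. Deviations of same-numbered libraries from their group means correlated by −0.07, 0.11 and −0.07 over 9497 genes. Those of libraries with different numbers correlated by −0.26 to 0.25. With 3 libraries a group, these values cannot show whether the numbers pair the samples. A replicate block gave 9233 genes against GM over all 18 libraries and 8629 over the 6 alone, 8180 and 7284 against 12 h, and 4823 and 3885 from 24 to 48 h. No named gene changed direction in any alternative run, and 17 lost a call in at least 1, among them Stac3, Qser1, Gm10184, Uqcrc1 and Gm20388. The change of Gm20388 was 1.95 ± 0.57, and 0.90 without the third 24 h library. Of 6671 called protein-coding genes with an average log2 CPM of at least 3, 947 lost the call when 1 library was left out, with a median absolute change of 0.19. Counts of list members without the third 24 h library were an alternative chosen after seeing the data.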
